A study of Homo sapiens with 8 samples.

Results

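The genes of the smooth-muscle type contractile apparatus examined here are ACTA2, ACTG2, TAGLN, CNN1, CNN2, TPM1, TPM2, CALD1, MYLK and VCL, measured in A-498, a long-established line of human kidney cancer cells. They were chosen by name as classical targets of serum response factor (SRF), and all 10 were found by Entrez identifier among the 28395 genes of the deposited table. Polyadenylated RNA was sequenced from 4 derived lines with 2 libraries each, grown for 24 h in medium with serum, without reaching confluence. Control line 1 and control line 2 had the genotype label wild type control and carried 2 different non-targeting single guide RNAs. The lines labelled ANXA4 knockout (KO) carried 1 of 2 ANXA4 guide RNAs (ANXA4 encodes annexin A4, a calcium-dependent membrane-binding protein), and are called here KO guide 1 and KO guide 2. Each guide is thus represented by 1 line, so an effect of a guide and a property of its line cannot be told apart. Whether a line is 1 clone or a pool is not given in the sources used here.

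SRF is a transcription factor that binds a DNA element called the CArG box. When actin monomers are used up by filament assembly, the cofactors MRTFA and MRTFB enter the nucleus and drive SRF targets of the cytoskeleton; in smooth muscle the cofactor myocardin (MYOCD) does this as well. The products of these genes form actin filaments, coil along them, bind them or regulate the myosin that pulls on them. Several of them are best known from smooth muscle and activated fibroblasts, whereas CNN2, CALD1, VCL and TPM1 are also widely used by non-muscle cells.

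Promoter sequences were read from RefSeq (GRCh38.p14) for 9 of the 10 genes, in a window of 250 bases before to 50 bases after 1 annotated start per gene. TAGLN had no entry. An exact CArG box, searched on both strands, lay in the windows of 3 of the 9 genes (ACTG2, CNN2 and MYLK), and in 1.29% of the 35116 promoters of the table. Allowing 1 mismatch within the A/T core gave the same 3 genes and 8.13% of all promoters. The MCAT motif of TEAD factors (CATTCC, both strands) lay in the windows of CALD1, MYLK and VCL and in 14.0% of all promoters, and no match shared a base with a CArG box. The 3 promoters with a CArG box are shown because SRF binds this element, and that of CNN1 because CNN1 differed most between lines. Each is printed 5′ to 3′ on the gene's strand, without the bases after the start, with exact CArG boxes in capitals. They lie at chr2:73892758-73893007 (plus strand), chr19:1026358-1026607 (plus strand), chr3:123620549-123620798 (minus strand) and chr19:11538601-11538850 (plus strand).
ACTG2: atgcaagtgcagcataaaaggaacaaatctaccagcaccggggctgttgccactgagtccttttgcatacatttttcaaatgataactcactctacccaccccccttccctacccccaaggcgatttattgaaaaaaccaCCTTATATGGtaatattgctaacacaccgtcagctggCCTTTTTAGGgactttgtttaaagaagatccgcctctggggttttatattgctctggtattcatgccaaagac
CNN2: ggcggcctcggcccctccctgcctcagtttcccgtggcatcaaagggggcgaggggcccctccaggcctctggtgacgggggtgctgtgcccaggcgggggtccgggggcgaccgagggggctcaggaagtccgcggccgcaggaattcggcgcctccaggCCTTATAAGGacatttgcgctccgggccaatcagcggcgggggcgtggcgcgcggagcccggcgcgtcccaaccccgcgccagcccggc
MYLK: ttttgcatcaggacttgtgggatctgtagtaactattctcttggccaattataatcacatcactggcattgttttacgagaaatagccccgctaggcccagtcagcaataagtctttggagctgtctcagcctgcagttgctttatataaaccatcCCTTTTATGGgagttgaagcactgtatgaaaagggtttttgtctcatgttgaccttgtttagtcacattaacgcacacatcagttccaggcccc
CNN1: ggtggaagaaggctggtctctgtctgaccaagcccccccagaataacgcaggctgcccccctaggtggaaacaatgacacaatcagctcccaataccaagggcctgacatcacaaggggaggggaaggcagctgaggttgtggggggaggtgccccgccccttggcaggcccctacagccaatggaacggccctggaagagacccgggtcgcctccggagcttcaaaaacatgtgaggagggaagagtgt
ACTG2 held CCTTATATGG at -110 to -101 and CCTTTTTAGG at -73 to -64, counted from the start with -1 as the base before it. CNN2 held CCTTATAAGG at -89 to -80, and MYLK held CCTTTTATGG at -94 to -85. The MYLK window is at an internal start, 263784 bases from the outer end of the gene. This start (123620548) lies near the other end of the gene (123610049). Which MYLK transcript begins there was not examined, and the sequence before the outer start was not read. The windows of TPM1 and CALD1 were also at internal starts, 5742 and 68135 bases from the outer end. A match is a description of letters, and windows without one may hold the element elsewhere.

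The libraries held 15784890 to 22631588 reads, and the 10 genes together held 0.216% to 0.297% of them. Values are the authors' normalized read counts unless reads are named. The targeted gene was checked first: ANXA4 was at 2821 and 3614 in control line 1, 3858 and 6773 in control line 2, 236 and 234 in KO guide 1, and 3433 and 4142 in KO guide 2. ANXA4 was thus low in the libraries labelled KO guide 1 only, those labelled KO guide 2 lay within the range of the control libraries, and every direction given for KO refers to the labels. A read count per gene shows neither a frameshift nor the protein. Of the kidney cancer cell markers, PAX8 had 2987 to 4476, VIM 37386 to 83227 and KRT8 16747 to 31461, while CA9 had only 2.07 to 24.8. Defining smooth muscle markers were low: MYH11, the smooth muscle myosin heavy chain, and MYOCD had 0 reads in all 8 libraries, and LMOD1 had 8.32 to 16.6. SYNM, encoding the intermediate filament protein synemin, was the exception with 836 to 1390 in every library and made up most of the summed markers (931 to 1435). CD68, a macrophage marker, had 1784 to 4409 and made up nearly all of the summed leukocyte markers. Of the 8 smooth muscle markers, 4 stayed below a value of 10 in every library, as did 6 of 9 fibroblast and pericyte, 4 of 5 endothelial and 4 of 5 leukocyte markers.

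Levels of different genes were compared per kilobase of annotated exons (GENCODE 29, union of all exons of the gene). CNN2 was highest with a mean of 2668 per kilobase over the 8 libraries. CALD1 (1063), TPM1 (1051) and VCL (905) followed, and their ranges over the libraries overlapped with each neighbour in this order. TPM2 (115), MYLK (98.1) and ACTA2 (48.6) formed a lower tier in which neighbours also overlapped, and the tier did not overlap with VCL. CNN1 (11.3) and TAGLN (7.33) overlapped with each other and lay below ACTA2, and ACTG2 was lowest at 0.787. Long exons of transcripts not used in these cells lower a value per kilobase, which bears most on MYLK with 22167 exon bases. The genes known from contractile smooth muscle (ACTA2, CNN1, TAGLN, ACTG2) were thus at the lower end, and widely used actin-binding genes at the upper end.

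Differences were tested with limma on log2(value + 1) over the 14040 genes that reached a value of 10 in 2 or more libraries. An adjusted p (Benjamini-Hochberg over all genes tested) under 0.05 was counted as a call. Of the 10 genes, 9 passed this filter and ACTG2 did not. The scale understates changes of low genes such as CNN1 and TAGLN. The labels do not say whether the 2 libraries of a line came from separate cultures, so p-values measure the spread between these libraries, which may be technical. Comparisons of KO guide 1 and KO guide 2 with the control lines used the same 4 control libraries. Where 1 line is said below to lie above or below all control libraries, the share of all genes doing so was not counted.

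**Figure D1:**
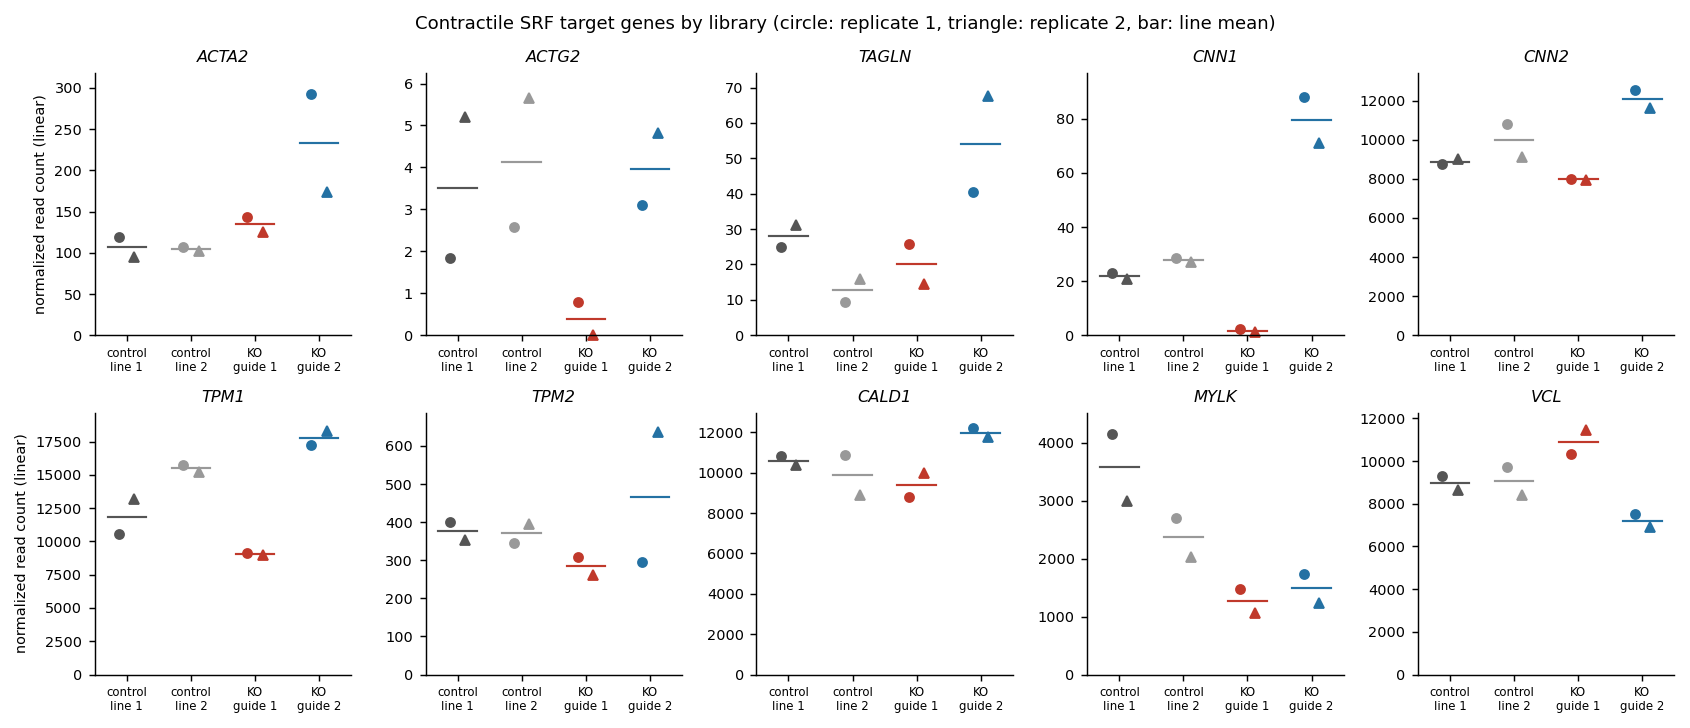
Normalized read counts (linear axis from 0) of the 10 genes in the 8 libraries, by line; circles are replicate 1, triangles replicate 2 and bars the mean of the 2 libraries. CNN1 is near 0 in KO guide 1 and highest in KO guide 2, and MYLK is lower in all 4 KO-labelled libraries than in any control library.

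Among the 2 actins, ACTA2 (chr10:88935074-88991337, smooth muscle alpha actin) stood at 119 and 94.6 in the libraries of control line 1, against 108 and 102 in those of control line 2. In KO guide 1 it was at 143 and 126, and in KO guide 2 at 293 and 174. All 4 KO-labelled libraries lay above all 4 control libraries, and the 2 libraries of KO guide 2 were the highest and furthest apart. ACTA2 rose in KO guide 2 against both control lines by 1.09 on the log2 scale (SE 0.23, limma adjusted p 0.0185). In KO guide 1 the difference was 0.35 (SE 0.23, limma adjusted p 0.396). The call for KO guide 2 was lost without its replicate 1 (0.72, adjusted p 0.099) and without replicate 2 of control line 1 (1.01, adjusted p 0.0618). Exons of ACTA2 overlap FAS and ACTA2-AS1 on the other strand, over 12.8% and 17.3% of their length, and the use of strand in counting is not given in the sources used here. FAS itself differed by 0.34 in KO guide 1 and 0.30 in KO guide 2 (limma adjusted p 0.364 and 0.406), and ACTA2-AS1 stayed below the filter. ACTG2 (chr2:73893008-73919865), the gamma actin of enteric smooth muscle and the gene with 2 exact CArG boxes, held only 0 to 5 reads per library. It had 1 and 0 reads in KO guide 1, so no fold is read from it.

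Transgelin and the calponins bind actin filaments. CNN1 (chr19:11538851-11550323), calponin 1, stood at 23.0 and 20.8 in control line 1, against 28.4 and 27.2 in control line 2. It was at 2.35 and 1.04 in KO guide 1, from 3 reads and 1 read, and at 87.9 and 71.2 in KO guide 2, from 85 and 59 reads. The 3 levels, those of KO guide 1, the controls and KO guide 2, did not overlap. Over the reads, CNN1 was 14.0-fold lower in KO guide 1 than in control (95% exact interval 5.29 to 52.2) and 3.22-fold higher in KO guide 2 than in control (2.48 to 4.19). These intervals cover counting error only. CNN1 fell in KO guide 1 by 3.30 on the log2 scale (SE 0.32, limma adjusted p 0.00112) and rose in KO guide 2 by 1.64 (SE 0.32, limma adjusted p 0.0147). The rise was lost without either library of KO guide 2 (adjusted p 0.0869 and 0.0512) and without replicate 2 of control line 1 (0.0515), whereas the fall kept its call in each of the 8 fits without 1 library.

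CNN2 (chr19:1026608-1039065), a calponin also widely used by non-muscle cells, was abundant and varied far less. Its values were 8767 and 8999 in control line 1, 10803 and 9127 in control line 2, 7984 and 7955 in KO guide 1, and 12532 and 11632 in KO guide 2. As for CNN1, KO guide 1 lay below and KO guide 2 above all control libraries. Against control the differences of -0.24 and 0.36 (SE 0.12 each) had limma adjusted p-values of 0.266 and 0.0876. A fit that took the replicate number as a block called the difference of KO guide 2 (limma adjusted p 0.017).

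TAGLN (chr11:117199294-117207465), which encodes transgelin, an early marker of smooth muscle, was low. It had 24.8 and 31.2 in control line 1, 9.46 and 15.9 in control line 2, 25.8 and 14.5 in KO guide 1, and 40.3 and 67.6 in KO guide 2. KO guide 2 lay above all other libraries, and the control lines did not overlap with each other. TAGLN rose in KO guide 2 by 1.44 (SE 0.37, limma adjusted p 0.0401). This call was lost in 6 of the 8 fits without 1 library, with adjusted p-values from 0.0521 to 0.202, and when genes reaching only a value of 1 in 2 libraries were tested too (0.0549). Its exons overlap PCSK7 on the other strand over 11.4% of their length, and PCSK7 differed by -0.37 in KO guide 2 (limma adjusted p 0.0914).

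Tropomyosins coil along actin filaments and control the access of myosin and other proteins. TPM1 (chr15:63042747-63071915) had 10526 and 13178 in control line 1, 15723 and 15238 in control line 2, 9105 and 8949 in KO guide 1, and 17230 and 18274 in KO guide 2. KO guide 1 lay below and KO guide 2 above all 4 control libraries, and the control lines did not overlap. TPM1 fell in KO guide 1 by 0.58 (SE 0.13, limma adjusted p 0.0343). The difference of KO guide 2 from control was 0.39 (SE 0.13, limma adjusted p 0.0876), and it was called with the replicate block (0.0169) and with DESeq2 (0.0477). The 2 control lines also differed by 0.39 (SE 0.15, limma adjusted p 0.236). The call in KO guide 1 was lost without the mean-variance trend (adjusted p 0.0664) and without each of the libraries of KO guide 1 and of the control lines, with adjusted p-values of up to 0.229. Antisense exons of TPM1-AS overlap 16.1% of the exon length of TPM1, and the count sums over all TPM1 isoforms.

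TPM2 (chr9:35681993-35690056) had 345 to 400 in the control libraries, 308 and 262 in KO guide 1, and 295 and 636 in KO guide 2. It was not called in any of the comparisons over all 8 libraries. The value of 636 stood apart, and this library, replicate 2 of KO guide 2, had 13.8% of its reads from mitochondrial genes, where the other 7 had 4.67% to 9.05%; its part in this value was not tested. Without replicate 1 of KO guide 2 TPM2 would be called as higher in that line (0.77), and without replicate 2 its difference was -0.34.

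Caldesmon and vinculin bind actin outside the motor itself: caldesmon restrains myosin on the filament and vinculin links filaments to adhesions. CALD1 (chr7:134711499-134970729) had 8872 to 10873 in the control libraries, 8802 and 9987 in KO guide 1, and 12190 and 11779 in KO guide 2. KO guide 2 lay above all other libraries, yet the difference from control was 0.23 (SE 0.13, limma adjusted p 0.293). VCL (chr10:73998116-74121363) went the other way, with 8409 to 9743 in the control libraries, 10345 and 11464 in KO guide 1, and 7538 and 6893 in KO guide 2. Here KO guide 1 lay above and KO guide 2 below all controls. Against control the differences were 0.27 and -0.32 (SE 0.12 each, limma adjusted p 0.216 and 0.132), and that of KO guide 2 was called with the replicate block (0.035). Exons of VCL overlap those of AP3M1 on the other strand over 11.1% of their length. AP3M1 differed by 0.32 in KO guide 1 and by -0.09 in KO guide 2 (limma adjusted p 0.231 and 0.759).

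MYLK (chr3:123610049-123884332) encodes myosin light chain kinase, which switches on smooth muscle and non-muscle myosin II by phosphorylating its light chain. It had 4150 and 2997 in control line 1, 2696 and 2033 in control line 2, 1484 and 1061 in KO guide 1, and 1735 and 1239 in KO guide 2. All KO-labelled libraries lay below all control libraries, and the 2 KO-labelled lines overlapped. MYLK fell by 1.19 in KO guide 1 (SE 0.22, limma adjusted p 0.0156) and by 0.97 in KO guide 2 (SE 0.22, limma adjusted p 0.0227). Within replicate 1 the 2 differences were -1.17 and -0.95, and within replicate 2 they were -1.22 and -0.99. The calls were lost without replicate 1 of control line 1 (adjusted p 0.0515 and 0.0714), without either library of KO guide 1 for that line (0.0614 and 0.171), and without replicate 2 of KO guide 2 for that line (0.124). They were also lost in a fit without the mean-variance trend (adjusted p 0.0507 and 0.0633). Both were kept in the fit with the replicate number as a block (SE 0.088, limma adjusted p 3.2e-06 and 1.43e-05). Control line 2 was itself lower than control line 1 (-0.59, SE 0.25, limma adjusted p 0.292), and the fit with the replicate block called this (0.00311). MYLK-AS1 and MYLK-AS2 overlap 0.6% and 0.438% of the exon length of MYLK, and 0.985% of its stretches of 50 bases also occur in transcripts of other genes, among them the pseudogene MYLKP1. The count sums over all MYLK transcripts, including any from the internal start.

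**Figure D2:**
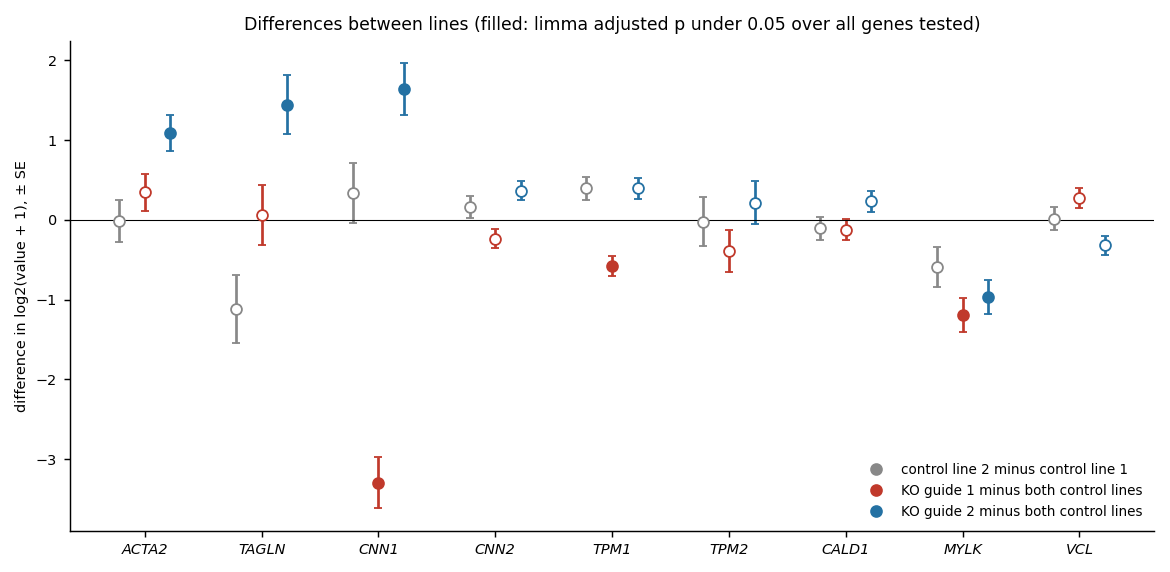
Difference in log2(value + 1) with its standard error for the 9 tested genes: KO guide 1 and KO guide 2, each against both control lines, and control line 2 against control line 1. Filled points had a limma adjusted p under 0.05; MYLK is below 0 in both KO-labelled lines (-1.19 and -0.97), and CNN1 is at -3.30 in one and 1.64 in the other.

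Counted over the 9 tested genes, 3 (CNN1, MYLK and TPM1) fell and 0 rose in KO guide 1, where 3.18% of all genes tested were lower and 3.82% higher. The median difference was -0.24, against -0.00087 over all genes. In KO guide 2, 3 (CNN1, TAGLN and ACTA2) rose and 1 (MYLK) fell, where 4.54% of all genes were higher and 6.67% lower. Here the median was 0.36, against 0.0096 over all genes. With the replicate block the same 3 genes fell in KO guide 1, where 11.4% of all genes were lower, and in KO guide 2 the numbers rose to 5 higher and 2 lower, where 12.5% and 14.9% of all genes were. The genes were chosen with earlier results of these data known, so these shares are a description.

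The difference between the 2 KO-labelled lines was tested directly. CNN1 was higher in KO guide 2 than in KO guide 1 by 4.94 (SE 0.38, limma adjusted p 0.000432), TPM1 by 0.97 (SE 0.15, 0.00972) and CNN2 by 0.60 (SE 0.14, 0.0382). VCL was lower by a difference of -0.60 (SE 0.14, limma adjusted p 0.0426). Thus 3 of 9 were higher and 1 was lower, where 2.41% of all genes tested were higher and 4.53% lower. ACTA2 (0.75, limma adjusted p 0.128) and TAGLN (1.38, 0.0898) were called with the replicate block (0.0167 and 0.0246), which gave 5 higher and 1 lower where 10.5% and 14% of all genes were. For MYLK the difference was 0.22 (SE 0.25, limma adjusted p 0.615). Single libraries carried most of these calls: without either library of KO guide 1 CNN1 alone was called, and without replicate 2 of KO guide 2 or either library of control line 1 CNN1 and TPM1 were. Without replicate 1 of KO guide 2, CNN2 (adjusted p 0.0758) and VCL (0.0526) lost their calls and TPM2 was called as higher in KO guide 2 (1.16, 0.0231). The sign for CNN1, TPM1, CNN2 and VCL was the same in all of these fits.

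Taking both KO-labelled lines against both control lines, with the correlation between libraries of a line (0.33) in the fit, limma called 0 of the 9 genes, where 0.235% of all genes were called. At an unadjusted p under 0.05 were 1615 of the 14040 genes tested. Of the 9 genes there were 2, ACTA2 (0.72, SE 0.29, adjusted p 0.38) and MYLK (-1.08, SE 0.27, adjusted p 0.14). These were also the only members whose KO and control libraries did not overlap: ACTA2 lay above, as did 5.11% of all genes tested, and MYLK below, as did 5.51%. MYLK was called as lower with the replicate block (limma adjusted p 0.0461, where 0.264% of all genes were called). It was also called with the quasi-likelihood test of edgeR (0.0465) and with DESeq2 (0.00025). These last 2 called 186 and 850 of all 14040 genes and take no account of lines. Line means gave 0.567. The mean of CNN1 was 24.8 ± 3.55 (SD, n = 4) over control libraries and 40.6 ± 45.5 (SD, n = 4) over KO-labelled ones, and its difference was -0.83 on the log2 scale (SE 1.12, limma adjusted p 0.858), so mean and log2 difference had opposite signs. Between the control lines limma called 0 of the 9 genes, where 2.13% of all genes were called, and edgeR and DESeq2 also called 0. At an unadjusted p under 0.05 there were 3 (MYLK, TAGLN and TPM1), where 2178 of the 14040 genes tested were. With the replicate block 1, MYLK, was called, where 12.5% were.

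Replicates of the same number shared features across lines. MYLK was lower in replicate 2 than in replicate 1 in all 4 lines, by a log2 difference of -0.46 (SE 0.072, limma adjusted p 0.00233). It was the single call among the 9 genes, where 8.62% of all genes tested were lower in replicate 2. ACTA2 (-0.33, limma adjusted p 0.115) and CNN1 (-0.30, 0.428) were also lower in all 4 lines, as were 19.3% of all genes. SRF itself was lower in replicate 2 in all 4 lines (-0.51, SE 0.078, limma adjusted p 0.00214), with 1530 and 1152 in control line 1, 1586 and 1065 in control line 2, 1420 and 1055 in KO guide 1, and 1660 and 1082 in KO guide 2. MRTFA fell by 0.63 (SE 0.091, limma adjusted p 0.00161) and MRTFB by 0.34 (SE 0.099, 0.0329). Of the immediate early SRF targets, FOSL1 rose by 0.45 (limma adjusted p 0.00298), and EGR1, DUSP1 and JUNB fell, EGR1 by 2.04 (SE 0.25, 0.000664). Of the other SRF targets of the cytoskeleton, SMTN, encoding smoothelin, rose by 0.42 (limma adjusted p 0.00894). FLNA, FLNC, ACTN4 and FHL2 fell. What a replicate number stands for is not given in the sources used here.

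**Figure D3:**
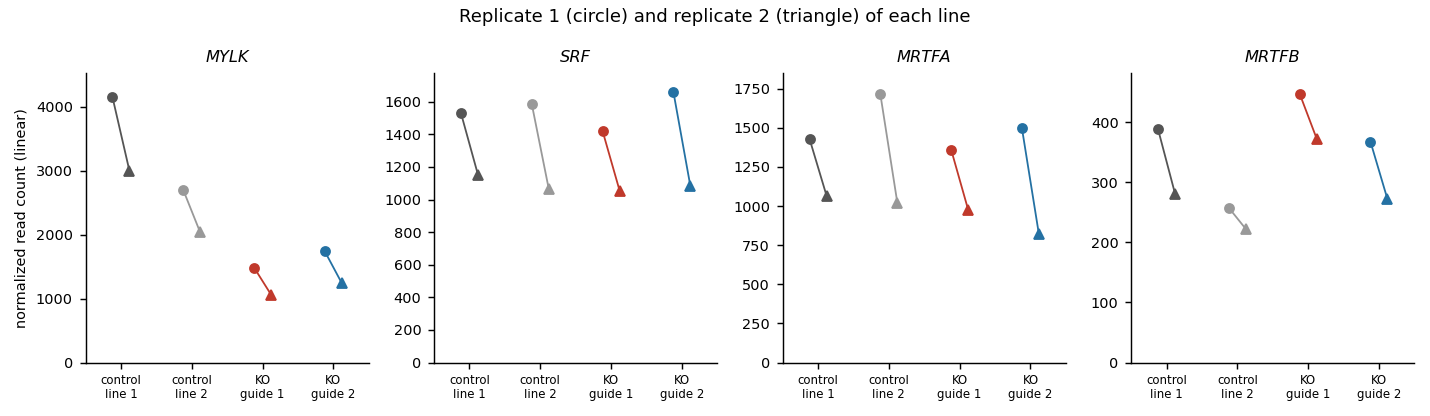
Normalized read counts (linear axis from 0) of MYLK, SRF, MRTFA and MRTFB in replicate 1 (circles) and replicate 2 (triangles) of each line, joined by lines. All 4 genes are lower in replicate 2 of every line, and MYLK alone is also separated between control and KO-labelled lines.

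In the limma fits without the replicate block, SRF and its cofactors had no called difference between lines. SRF changed by -0.10 in KO guide 1 and 0.03 in KO guide 2 (SE 0.24, limma adjusted p 0.831 and 0.957), and MRTFA by -0.15 and -0.21 (SE 0.29, 0.796 and 0.704). MRTFB was at 0.54 in KO guide 1 (SE 0.19, limma adjusted p 0.132) and 0.17 in KO guide 2 (0.637). Of the 6 tested genes of this group, limma called 0 in either KO-labelled line. At an unadjusted p under 0.05 there was 1 (MRTFB) in KO guide 1 and 0 in KO guide 2, where 3363 and 3749 of the 14040 genes tested were. With the replicate block MRTFB was called in KO guide 1 (limma adjusted p 0.0072). Between the control lines limma called 0 of the 6 genes. The block called 1 as lower in control line 2, where 12.5% of all genes were called. MRTFB had 388 and 281 in control line 1, 257 and 222 in control line 2, and 447 and 372 in KO guide 1. Its libraries of KO guide 1 thus overlapped with those of control line 1.

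Of 35 other SRF targets of the actin cytoskeleton, 32 were tested. In KO guide 1, limma called 2 higher and 5 lower, with a median of -0.15, where 3.82% of all genes tested were higher and 3.18% lower. The fit with the replicate block gave 3 higher and 9 lower, where 13% and 11.4% of all genes were. SMTN had the largest fall (-1.23, SE 0.21, limma adjusted p 0.0142, from 4366 in control to 1794), and TGFB1I1, CNN3, MYH10 and DSTN also fell. The 2 higher calls were PDLIM5 (0.57, limma adjusted p 0.0366) and MYL9, for which no direction is read here because of its control values, given next. In KO guide 2, 2 were higher (MYL9 and PDLIM7) and 2 lower (MYH10 and CNN3), with a median of 0.05, where 4.54% and 6.67% of all genes were. The block gave 7 higher and 5 lower here, where 12.5% and 14.9% of all genes were. The largest fall was that of MYH10, a heavy chain of non-muscle myosin II (-0.95, SE 0.18, limma adjusted p 0.0133). MYL9, the regulatory light chain that the kinase phosphorylates, was at 0.919 and 0 in control line 1, 862 and 903 in control line 2, 146 and 241 in KO guide 1, and 1251 and 1434 in KO guide 2. Its log2 differences from control of 2.43 and 5.26 average over control lines that lie far apart, and in KO guide 1 its mean of 194 is below the control mean of 441. Between the control lines, MYL9 was higher in control line 2, and ACTN1 (-1.16, SE 0.20, limma adjusted p 0.0285) and LPP were lower, where 2.13% of all genes tested were called. The block gave 1 higher and 5 lower, where 12.5% of all genes were called. Between the KO-labelled lines, 7 were higher in KO guide 2 and 0 lower, with a median of 0.19, where 2.41% and 4.53% of all genes were. With the block 9 were higher and 3 lower, where 10.5% and 14% of all genes were. MYL9 led with 2.83 (SE 0.34, limma adjusted p 0.00384). The genes named beside the largest changes were chosen after their values were seen.

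**Figure D4:**
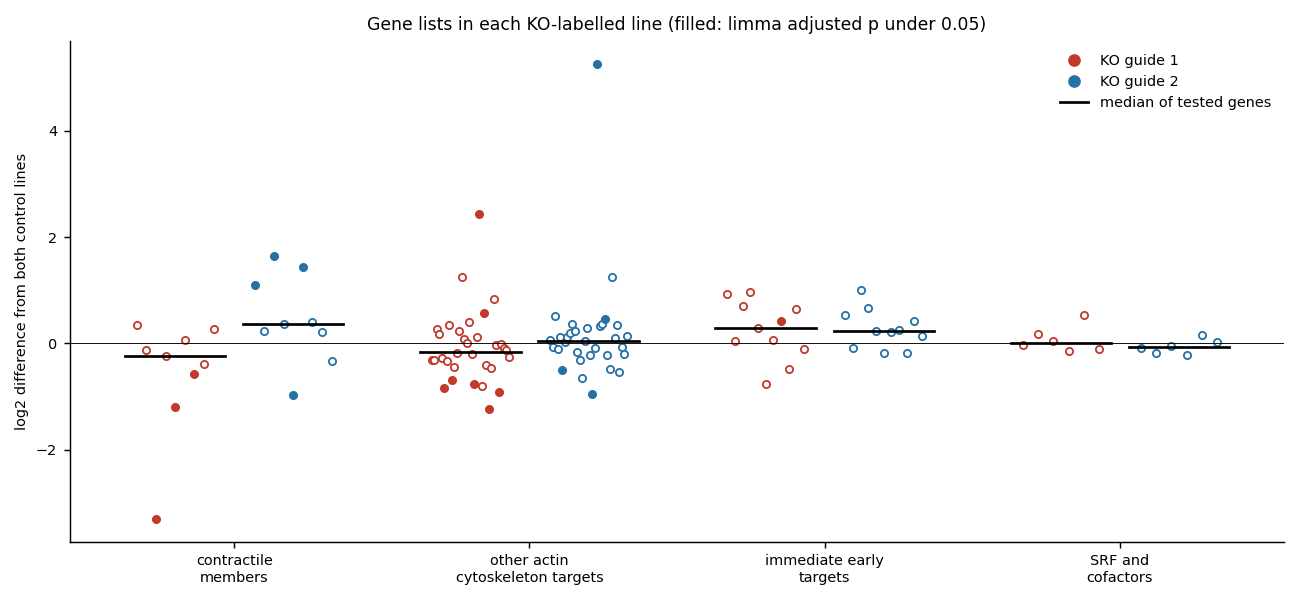
Log2 differences from both control lines in KO guide 1 (red) and KO guide 2 (blue) for the tested genes of 4 lists; filled points had a limma adjusted p under 0.05 and black bars are medians. The contractile genes have medians of -0.24 and 0.36, and the other actin cytoskeleton targets of -0.15 and 0.05.

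Of 11 tested immediate early targets, IER2 rose in KO guide 1 (0.42, SE 0.10, limma adjusted p 0.046), and limma called 0 in KO guide 2. There, 2 were at an unadjusted p under 0.05, where 3749 of the 14040 genes tested were. With the replicate block, 3 were called higher in KO guide 1 (IER2, JUNB and ATF3), where 13% of all genes were, and 3 in KO guide 2 (JUNB, IER2 and EGR1), where 12.5% were. None was called lower in either line with the block.

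Markers of other cells also moved between lines. COL1A1, a collagen chain of fibroblasts, fell by 2.28 in KO guide 1 (SE 0.22, limma adjusted p 0.000968) and by 1.03 in KO guide 2 (SE 0.22, 0.018), and was higher in KO guide 2 than in KO guide 1 by 1.25 (0.0251). It had 1027 and 1408 in control line 1, 548 and 851 in control line 2, 177 and 195 in KO guide 1, and 383 and 511 in KO guide 2. The control lines thus did not overlap with each other, though limma without the replicate block did not call their difference. With the block, 1 of the 3 tested fibroblast and pericyte markers was called as lower in control line 2, where 12.5% of all genes were called. The other fibroblast genes COL1A2, COL3A1, DCN and LUM had at most 1.21, that is at or near 0. PDGFRB, a pericyte marker, had 12.9 and 19.8 in control line 1, 4.30 and 4.53 in control line 2, 2.35 and 1.04 in KO guide 1, and 6.21 and 3.62 in KO guide 2. Its difference in KO guide 1 was -1.88 (limma adjusted p 0.055) and was called with the replicate block (0.0219). RGS5, another pericyte marker, had 173 to 239. The summed fibroblast and pericyte markers ranged from 731 to 1649 in control and from 365 to 735 in KO-labelled libraries. Of 7 tested kidney cancer cell markers, 3 rose in KO guide 2, where 4.54% of all genes tested were higher, led by KRT18 (0.66, SE 0.15, limma adjusted p 0.0224), and NNMT was higher there than in KO guide 1 (1.06, 0.00806). With the replicate block 5 were higher in KO guide 2, where 12.5% of all genes were. In KO guide 1 limma called 0, with 4 at an unadjusted p under 0.05, where 3363 of the 14040 genes tested were. With the block KRT8 and KRT18 were higher there and VIM (-0.81, limma adjusted p 0.00149) and NNMT (-0.42, 0.00818) lower, where 13% and 11.4% of all genes were. Their part in the differences of the contractile genes was not tested.

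The genes whose pattern over the 8 libraries was most like the mean standardized pattern of the 9 tested genes were C20orf96 (Pearson's r 0.99), ACOX3 (0.99), ACSM5 (0.97), PDLIM7 (0.97) and SHANK2 (0.97). PDLIM7, which binds actin-based structures, had 3723 and 3837 in control line 1, 3470 and 3341 in control line 2, 2701 and 2747 in KO guide 1, and 5105 and 4775 in KO guide 2. The genes most like single members were SCAND1 for CNN1 (0.99), AURKAIP1 for TPM1 (0.99), BCS1L for CNN2 (0.98), KIAA1549 for VCL (0.99), ZNF501 for MYLK (0.99), MED28 for ACTA2 (0.99), NDUFAB1 for TAGLN (0.98), CCAR1 for TPM2 (0.98) and LINC02709 for CALD1 (0.96). Among the members, CNN1 and TPM1 had r = 0.91, CNN2 and TPM1 0.90, and CNN1 and CNN2 0.87, whereas CNN1 and VCL had -0.90. These are descriptions over 8 libraries of 4 lines that share line and replicate number.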

How the data were processed

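Per the submitters' processing notes, fastp 0.23.2, HISAT2 2.2.1, featureCounts 2.0.1 and DESeq2 2.11.40.8 were used and hg38 and GRCh38 named as builds, with no role given. The deposited values are a normalized signal, 1 column per library, counted with featureCounts, per the labels. In each column 100% of the nonzero values equalled a whole number of steps of 1 read (tolerance 1e-06), so whole reads were recovered. Symbols and gene coordinates came from RefSeq (GRCh38.p14), which named 27745 identifiers.

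Tests were made on log2(value + 1) with limma 3.58.1 and a mean-variance trend (R 4.3.3). The fit was also tried on simulated counts without an effect of the replicate number, which does not give error rates for these data. KO against control used duplicateCorrelation over lines, and other comparisons 1 model with a mean per line. Replicate numbers came from the titles. Differences between replicates correlated across genes at 0.285 to 0.501 in all 6 pairs of lines, above the limit of 0.1, so the numbers were taken as paired and the fit with the replicate number as a block is given where it changed a call of a member or a count of a list described. Replicates of a line differed by more than sampling noise (chi-square of 18.8 to 72.3 per degree of freedom). Alternatives included edgeR 4.0.16 and DESeq2 1.42.0 on the recovered reads. The genes were fixed by name; in the other lists the largest called rise and fall per comparison were named, and for likeness the 5 genes nearest the mean pattern and the 1 nearest each member. Members and lists were chosen with earlier results of these data known. Reads carry no molecular identifiers. Some results of the other lists are not reported here.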

Additional observations from a re-analysis of the deposited data

Results flagged for a closer look

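In the test of single samples far from the others of their arm, 1 of 20 groups of 4 libraries was flagged, as chance alone gives for about 1 in 20. It was TPM2 in replicate 2 of KO guide 2, at 636 where the other KO-labelled libraries had 262 to 308. The difference between the 2 KO-labelled lines was flagged for 4 genes because the test of that difference passed: CNN1 (4.94), TPM1 (0.97) and CNN2 (0.60) were higher in KO guide 2, and VCL (-0.60) was lower, on the log2 scale with limma adjusted p-values of 0.000432, 0.00972, 0.0382 and 0.0426.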

How the results depend on the processing

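The number of the 9 tested genes called is given with the number called over all genes in brackets, out of 14040 unless stated. It was 0 (33) for KO against control. It became 1 (37) with the replicate block, 2 (1474) with a mean per line and no correlation, 1 (186) with edgeR and 1 (850) with DESeq2. The last 3 of these take no account of variation between lines. For KO guide 1 it was 3 (984), and 1 (611) without the mean-variance trend. For KO guide 2 it was 4 (1573), with 7 (3851) under the replicate block. It was 2 (1420 of 11242) under a filter of at least 50 in 4 libraries, which removed CNN1 and TAGLN from the test. MYLK lost its call without the trend and TAGLN with a filter of at least 1, and TPM1 gained a call with DESeq2. Between the KO-labelled lines it was 4 (975), with 6 (3442) under the replicate block. It was 2 each under a filter of at least 1 (750 of 18592), equal library totals (836 of 14018) and no trend (500). Between the control lines it was 0 (299), and 1 (1752) under the replicate block. For replicate 2 against replicate 1 it was 1 (2470), and 0 (117) without the trend. Leaving out 1 library gave 0 to 0 genes for KO against control and between the control lines, 1 to 3 for KO guide 1, 1 to 4 for KO guide 2, 1 to 4 between the KO-labelled lines and 1 to 1 between the replicates. The replicate block turned no sign and ended no call.

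Of 973 values of single genes under an alternative, 880 kept direction and call, 47 lost the call, 14 gained one and 32 changed sign; the cause was not tested. The sign turned for KO against control with edgeR and DESeq2 for CNN1 (0.68 and 0.71), TPM2 (0.0060 and 0.0084) and VCL (0.0074 and 0.0073), and between the control lines with equal totals for VCL (-0.017). Without 1 library, KO against control spanned -0.0053 to 0.14 for CNN2, -0.21 to 0.037 for TPM1, -0.37 to 0.10 for TPM2, -0.014 to 0.13 for CALD1 and -0.13 to 0.063 for VCL. TAGLN in KO guide 1 spanned -0.33 to 0.46 and TPM2 in KO guide 2 -0.34 to 0.77. Between the control lines the ranges were -0.18 to 0.14 for ACTA2, -0.12 to 0.074 for TPM2, -0.25 to 0.039 for CALD1 and -0.092 to 0.12 for VCL. MYLK between the KO-labelled lines spanned -0.019 to 0.47, and between replicates TPM2 -0.071 to 0.37 and CALD1 -0.13 to 0.024. In fits without 1 library a line left with 1 library is assumed to vary like the others. Leaving out whole lines, chosen after seeing the data, gave -0.79 to -1.38 for MYLK in KO against control. MYLK was not called in any of these fits (limma adjusted p 0.0512 to 0.55). The smallest difference and highest adjusted p were those without control line 1. Depth limits ACTG2, CNN1 in KO guide 1 and TAGLN most.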
